A study of Mus musculus with 36 samples.

Results

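The 5 genes described here are Gm37297 and Gm42899, which lie in introns of 2 long genes on the strand of those genes, the host genes Agap1 and Lhfp, and Gm43062, which lies between genes. They are 5 of the 49315 genes counted in each library, and all 5 passed the filter on low counts. Gm37297, Gm42899 and Gm43062 were selected because their counts were far higher in space than on land in these same libraries. The hosts were taken for their position. Levels in space against land are therefore given as a description and no test supports them, while the comparisons of nanoceria and of gravity in space were not used for the choice and were tested.

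The cells were C2C12 proliferating myoblasts, an established mouse muscle precursor line, grown in sealed flight hardware in an incubator set at 37 °C, with the last fluidic steps on day 9. The labels name 3 regimes: in space without gravity, in space with gravity, and on land. Each regime held cultures without nanoceria and cultures given nanoceria, which are cerium oxide nanoparticles, at 100 µg/ml, so that 6 groups of 3 libraries of polyadenylated RNA were made. All groups share the single cell line and the same hardware. Land cultures were a separate and later run, so space and that run cannot be told apart, and replicate numbers here only follow the order of the records.

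Total counts ranged from 2986628 to 11378178 in 17 libraries. The remaining one, replicate 3 of space with gravity and nanoceria, held only 23858 counts. In that library 3 counts correspond to 35.7 counts for every 1000000 of library size (CPM, scaled by TMM, a trimmed mean over genes), against 0.193 to 1.11 CPM elsewhere. That library could not show a gene well below that level, each of the 5 genes had at most 3 counts there, and results that it touches are given with and without it. The 6 most abundant genes took between 23.8% and 76.3% of the counts, with the higher shares on land. Myoblast markers fixed for the label (Myod1, Myf5, Des, Cdh15, Itga7, Vcam1, Chodl and Pax7) all had counts and summed to between 70.6 and 554 CPM outside the smallest library. Fused myotube markers summed to between 0.659 and 84.4 CPM, macrophage and blood markers to between 2.63 and 41.8 CPM with Adgre1 at 0 counts. Endothelial, epithelial and adipocyte lists reached at most 21.2, 2.96 and 5.26 CPM. Their part in the results was not tested.

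Mammalian genes are transcribed together with their introns, which are removed by splicing, and the spliced RNA is cleaved and given a poly(A) tail, usually shortly after the hexamer AATAAA. Annotation projects list many short transcripts inside introns from single cDNA records, and GENCODE places those that still await experimental proof in the class TEC. Agap1 encodes a GTPase-activating protein for ARF small GTPases, which acts in endosomal traffic with the AP-3 adaptor complex. Lhfp encodes a membrane protein of a tetraspan family whose function is little known.

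The end of each selected transcript is shown, since the 3′ end is what a library of polyadenylated RNA depends on. Each window holds the last 100 bases of the annotated transcript and the 50 bases after it, read 5′ to 3′ on the plus strand of GRCm38.p6 (RefSeq), with AATAAA in capitals.
Gm37297 (chr1:89485722-89485871): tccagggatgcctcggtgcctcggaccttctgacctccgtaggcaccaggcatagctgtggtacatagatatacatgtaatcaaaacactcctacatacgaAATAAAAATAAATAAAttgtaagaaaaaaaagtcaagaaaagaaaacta
Gm42899 (chr3:53085786-53085935): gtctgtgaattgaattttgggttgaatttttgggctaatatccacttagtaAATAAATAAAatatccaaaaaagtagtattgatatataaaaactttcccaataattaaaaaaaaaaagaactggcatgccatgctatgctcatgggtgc
Gm43062 (chr3:103072393-103072542): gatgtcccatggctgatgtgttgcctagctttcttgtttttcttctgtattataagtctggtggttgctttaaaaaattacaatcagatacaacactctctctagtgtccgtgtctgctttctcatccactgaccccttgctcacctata
The Gm37297 window held 3 copies of AATAAA, the last one 11 bases past the annotated end. Gm42899 had 2 overlapping copies, the last one 45 bases before its end, and Gm43062 had none. Of all 2680 TEC genes, 33.5% held the hexamer in the same window on their own strand and 13.1% on the opposite strand. For the 1239 TEC genes within an intron on the strand of the host, these shares were 30.0% and 12.2%. The 50 bases after the annotated end also held a run of 8 A in Gm37297 and of 11 A in Gm42899, while the longest run of A after Gm43062 was 1 base. A run of at least 8 A was found on the own strand in 30.3% of the intronic windows and in 20.5% of all TEC windows, and on the opposite strand in 3.39% and 3.69%. These matches describe letters only.

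Gm37297 (ENSMUSG00000104114, class TEC) is a single block of 2384 bases on chromosome 1 (GRCm38, 89483438 to 89485821, plus strand). It lies in intron 1 of an 18-exon Agap1 transcript, 27845 bases after that intron begins and 118776 bases before it ends. Agap1 (ENSMUSG00000055013) spans chromosome 1, 89454806 to 89897617, with 17559 bases of exon. Gm42899 (ENSMUSG00000104687, class TEC) has 2667 bases on chromosome 3 (53083219 to 53085885, plus strand) and lies in intron 2 of a 4-exon Lhfp transcript. Lhfp (ENSMUSG00000048332) spans chromosome 3, 53041528 to 53261679, with 5108 bases of exon. Gm43062 (ENSMUSG00000104671, annotated as a lincRNA) has 1319 bases on chromosome 3 (103071174 to 103072492, plus strand). It starts 3259 bases after the end of Nras, a small GTPase gene on the same strand, and ends 1521 bases before Ampd1.

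A blastn search reported no other stretch of the genome that matched Gm37297 or Gm42899 at 85% identity or more. Matches too short or too diverged for the E value limit of that search would not be reported. Of the bases of Gm37297, 16.5% were masked as repeats, and of Gm42899 20.5%. Gm43062 had 173 such matches elsewhere, the longest over 889 bases, which together covered 74.4% of it, and 61.3% of its bases were masked as repeats. How reads with several matches were counted is not given in the sources used here, so the count of Gm43062 is uncertain. The effect on the masked parts of Gm37297 and Gm42899 was not tested. Whether the counting used the strand of a read is not given in these sources either.

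Counts within the host introns were not evenly spread over the annotated genes there. Summed over the 18 libraries, Gm37297 held 3470 counts, 1456 per kb, against 1254 per kb of exon for Agap1. Of the 3470 counts, 1623 came from space with gravity and nanoceria replicate 1, which held 3536 of the 22026 counts of Agap1. The order of these 2 sums therefore leans on 1 library. In the same intron, the same-strand transcript Gm28499 (666 bases) held 0 counts, and elsewhere in Agap1 the TEC gene Gm37521 (2045 bases) also held 0. Gm42899 held 2665 counts, 999 per kb, against 1222 per kb of exon for Lhfp. C130075A20Rik, another TEC gene on the same strand in intron 2 of Lhfp, is longer at 4176 bases and held 13 counts, 3.11 per kb, so Gm42899 was 321-fold higher per kb. The remaining same-strand TEC genes of that intron, Gm43804 and Gm43805, held 1 and 0 counts. Of these sums, 3467 of the 3470 counts of Gm37297 and 2655 of the 2665 of Gm42899 came from space libraries. Both were selected for high counts there. Standing above unselected genes of the same intron is therefore partly fixed by the choice and is given as a description. Around Gm43062, counts per kb fell from 26431 in Nras to 1186 in Gm43062 and 1.13 in Ampd1, a muscle AMP deaminase gene. Dennd2c, further away, held 28.0 per kb.

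**Figure D1:**
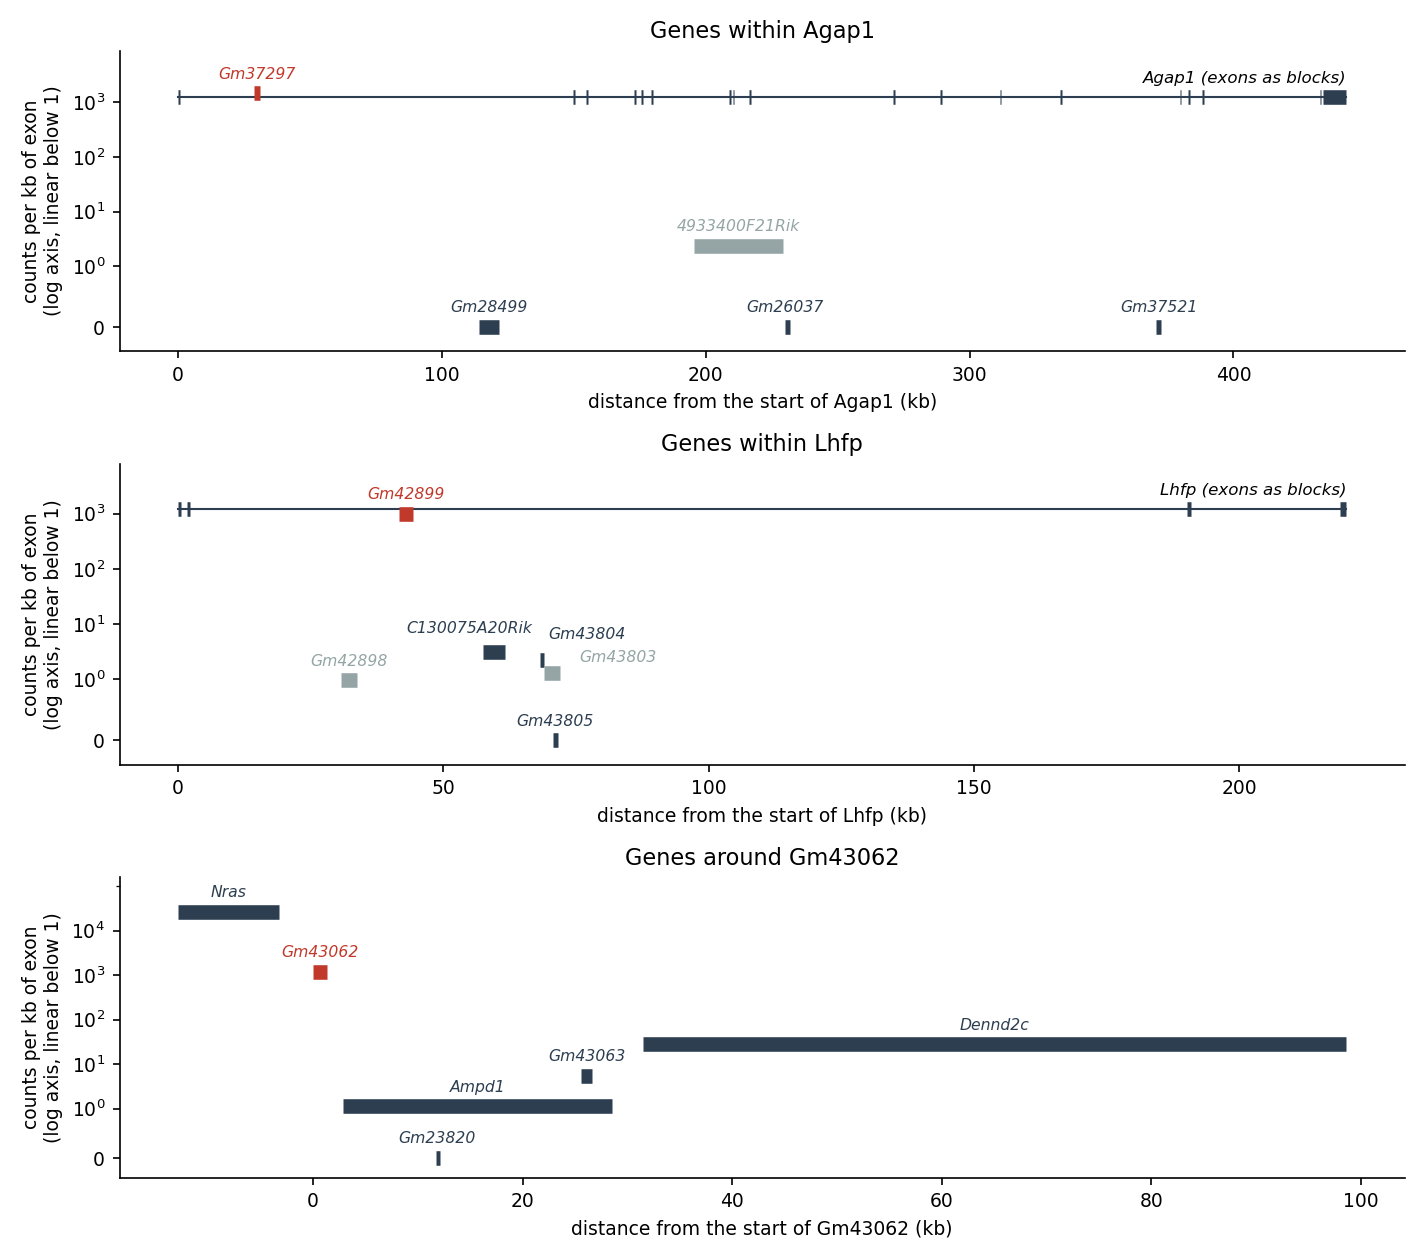
Counts per kb of exon, summed over all 18 libraries (log axis, linear below 1), against distance in kb from the start of Agap1, Lhfp or Gm43062. Red marks the selected transcripts, dark bars other plus-strand genes and grey bars minus-strand genes; Gm37297 and Gm42899 stand near their hosts' level, while the other genes inside the hosts lie at 0 to 3.11 counts per kb.

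Gm37297 was nearly absent on land and varied between 0.401 and 129 CPM within space, the smallest library left out. Its counts on land were 0, 1 and 2 without nanoceria and 0 in all 3 libraries with it. The libraries from space with gravity held 393, 311 and 432 counts without nanoceria (25.3, 26.7 and 71.1 CPM). With it they held 1623, 197 and 0 (129, 31.4 and 0 CPM), where the 0 is the smallest library. In space without gravity they were 2, 7 and 167 without nanoceria (0.401, 1.17 and 29.8 CPM) and 173, 2 and 160 with it (25.2, 0.742 and 27.1 CPM). Of the 6 libraries without gravity, 3 were thus about as high as the lower ones with gravity, and the other 3 lay at or near the land level of up to 0.657 CPM. By group mean, levels ran from space with gravity and nanoceria (80.0 CPM without the smallest library, 53.3 with it) through space with gravity (41.1) and space without gravity with and without nanoceria (17.7 and 10.4) to land (0.304 and 0). Every pair of neighbours in that order overlapped. Pooled over the 3 libraries of a group, space with gravity was 160-fold above land without nanoceria (exact 95% interval 54.8 to 779, from 1136 and 3 counts). With nanoceria it was at least 344-fold higher, against a floor of 3 counts over the land group. Single libraries moved these values: the first became 79.3 without land replicate 1 and 377 without land replicate 3 (1 land count left, interval 67.6 to 14914), and the bound became 111 without space with gravity and nanoceria replicate 1 and 184 without land replicate 2 with nanoceria. Such intervals and floors cover counting error only.

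Agap1 was measured in every library. Its counts on land were 339, 236 and 126 without nanoceria (47.6, 60.3 and 41.4 CPM) and 250, 318 and 41 with it (92.6, 63.7 and 13.3 CPM). In space with gravity the levels were 354, 203 and 495 CPM without nanoceria and 280, 247 and 35.7 CPM with it, the last from 3 counts. Without gravity they were 235, 39.4 and 176 CPM without nanoceria and 130, 285 and 119 CPM with it. Apart from the smallest library and from space without gravity replicate 2 (no nanoceria), all space libraries lay above all land libraries. Pooled counts gave 6.57-fold (6.09 to 7.10) for space with gravity over land without nanoceria and 4.74-fold (4.35 to 5.16) with it. The host was thus higher in space too, by far less than the transcript in its intron.

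The ratio to the host was taken in each library as counts per kb of Gm37297 over counts per kb of exon of Agap1. On land it was 0, 0.0312 and 0.117 without nanoceria and 0 with it. In space with gravity it was 0.526, 0.969 and 1.06 without nanoceria. With it the ratios were 3.38 and 0.937 (the smallest library held 3 counts of the pair and was left out). Without gravity it was 0.0126, 0.219 and 1.24 without nanoceria and 1.42, 0.0192 and 1.68 with it. In the libraries with gravity the intronic transcript thus had between 0.526 and 3.38 times the density of the host's exons, and in 2 libraries without gravity it fell within the land range. Those 2 libraries did not lack the host: replicate 1 without nanoceria held 1172 counts of Agap1 beside 2 of Gm37297, a share of 0.170% (Wilson 95% interval 0.0467 to 0.619) of the pair. Replicate 2 with nanoceria held 767 beside 2, a share of 0.260% (0.0714 to 0.943). At the other end, Gm37297 made up 31.5% (30.2 to 32.7) of the pair in space with gravity and nanoceria replicate 1.

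With the smallest library left out, where it held 1 count, Gm42899 was higher in every space library than in every land library. It was chosen on that comparison. Land counts were 4, 0 and 5 without nanoceria (0.562, 0 and 1.64 CPM) and 1, 0 and 0 with it (0.370, 0 and 0 CPM). With gravity in space the counts were 271, 598 and 169 without nanoceria (17.5, 51.4 and 27.8 CPM) and 594, 314 and 1 with it (47.0, 50.1 and 11.9 CPM). Without gravity they were 74, 22 and 130 without nanoceria (14.8, 3.69 and 23.2 CPM) and 309, 79 and 94 with it (45.0, 29.3 and 15.9 CPM). In the 6 libraries without gravity it thus held at least 22 counts each, where Gm37297 held 2, 7 and 2 in 3 of them. The group means fell from 48.5 CPM (space with gravity and nanoceria without the smallest library, 36.3 with it) over 32.2, 30.1 and 13.9 CPM to 0.735 and 0.123 CPM on land. In that order, space without gravity without nanoceria and land without nanoceria was the one pair of neighbours that did not overlap. Pooled, space with gravity was 48.9-fold above land without nanoceria (25.6 to 107, from 1038 and 9 counts), 31.9-fold without replicate 2 of space with gravity and 86.2-fold without land replicate 3.

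Lhfp did not follow its intronic transcript. Its levels on land were 14.5, 35.8 and 200.1 CPM without nanoceria and 19.3, 7.01 and 229.8 CPM with it. Space with gravity gave 68.1, 51.2 and 35.6 CPM without nanoceria and 35.3, 74.0 and 11.9 CPM when it was added, the last from 1 count. Without gravity they were 34.1, 15.3 and 91.6 CPM without nanoceria and 83.3, 82.8 and 41.6 CPM with it. The highest and the lowest library were both on land, and all groups overlapped. The 2 high land libraries set the sign of the difference: the log2 fold change of space with gravity against land was −0.81 in all libraries, 0.10 without land replicate 3 (no nanoceria) and 0.56 without land replicate 3 with nanoceria. For space without gravity against land it was −0.56, and 0.34 and 0.80 without the same 2 libraries.

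Relative to Lhfp, Gm42899 separated space from land completely. Its per kb ratio on land was 0.0744, 0 and 0.0157 without nanoceria and 0.0368, 0 and 0 with it. With gravity in space it was 0.491, 1.92 and 1.50 without nanoceria. With it the ratios were 2.55 and 1.30 (the smallest library held 2 counts of the pair and was left out). Without gravity it was 0.834, 0.463 and 0.484 without nanoceria and 1.03, 0.679 and 0.732 with it. Among space libraries the lowest ratio, 0.463, stood above the highest land ratio, 0.0744. As a share of the pair, Gm42899 took 33.7% ± 12.8 (SD, n = 11) in space and 1.07% ± 1.50 (SD, n = 6) on land. The largest share was 57.1% (Wilson 95% interval 54.1 to 60.1), in space with gravity and nanoceria replicate 1.

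**Figure D2:**
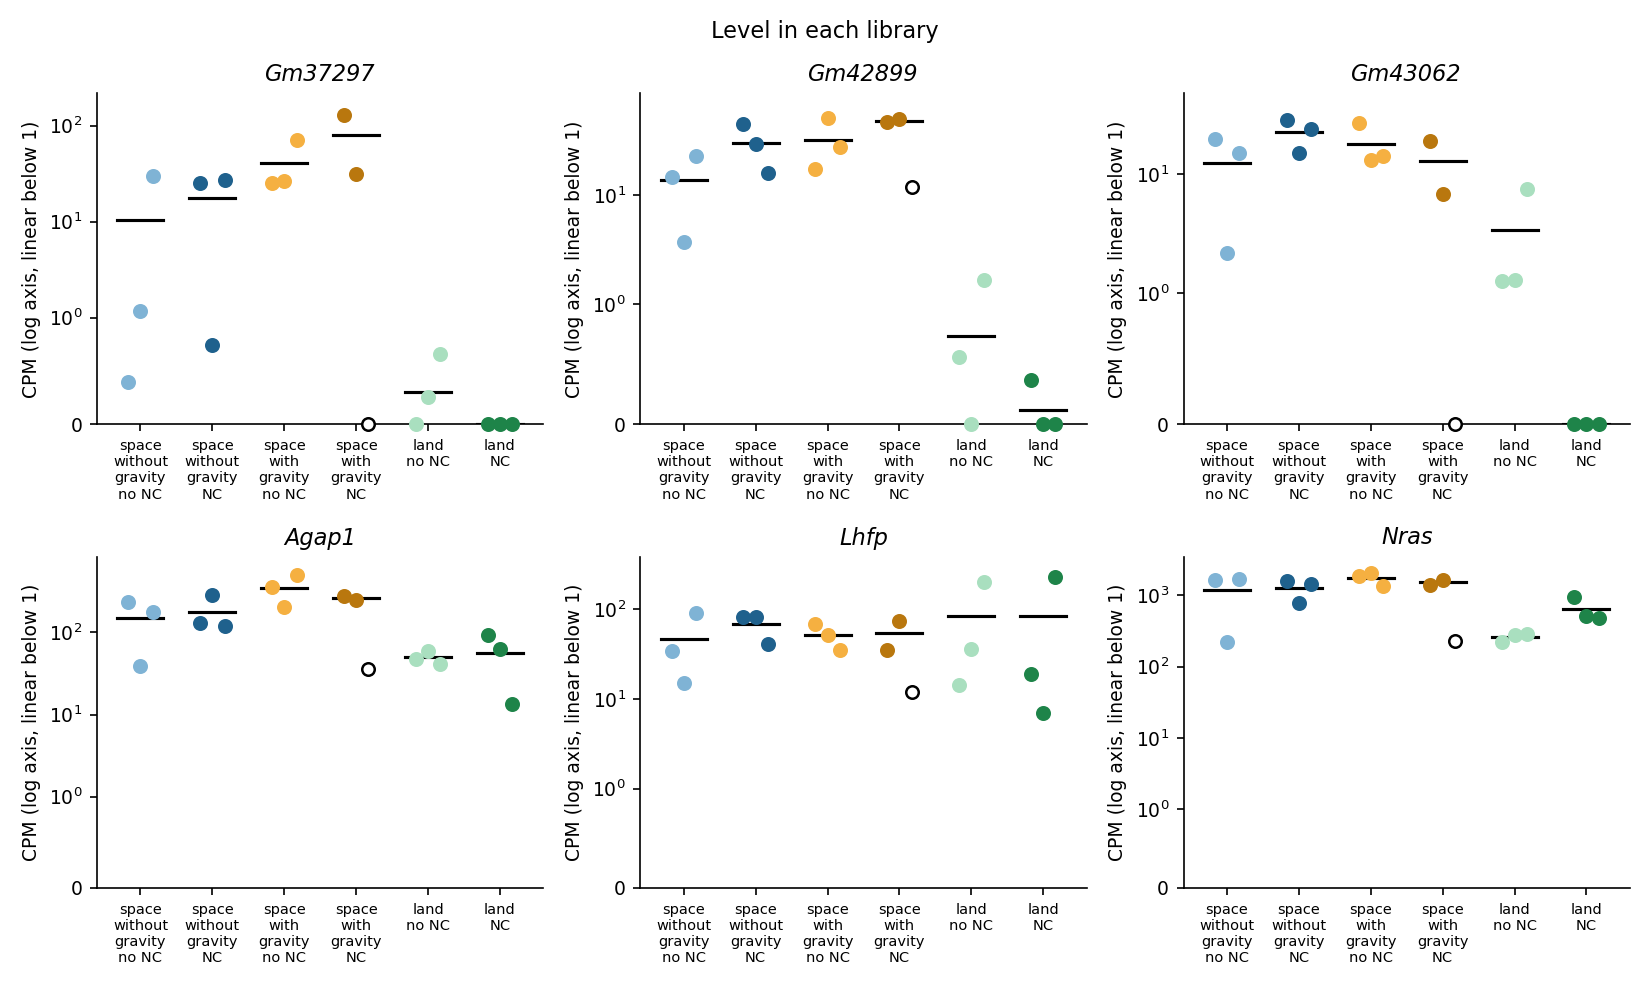
Level of the 3 selected transcripts, of both hosts and of Nras in each library, in CPM (log axis, linear below 1), by group; NC is nanoceria, bars are group means without the smallest library, which is drawn as an open point. The 3 transcripts lie at 0 to 7.56 CPM on land, Agap1 and Nras are higher in most space libraries, and Lhfp spans 7.01 to 229.8 CPM on land alone.

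On land Gm43062 had counts in all 3 libraries without nanoceria and in none with it. Its counts were 9, 5 and 23 (1.26, 1.28 and 7.56 CPM) without nanoceria and 0 in all 3 land libraries with it. In those with nanoceria 3 counts correspond to 1.11, 0.601 and 0.976 CPM, near the first 2 levels without it, so absence is not shown. Space with gravity gave 422, 153 and 87 counts without nanoceria (27.2, 13.2 and 14.3 CPM). When nanoceria was added it gave 243, 43 and 0 (19.2, 6.85 and 0 CPM), the last in the smallest library. Without gravity they were 100, 13 and 85 without nanoceria (20.1, 2.18 and 15.1 CPM) and 197, 41 and 143 with it (28.7, 15.2 and 24.2 CPM). The order by mean was space without gravity with nanoceria (22.7 CPM), space with gravity (18.2), space with gravity and nanoceria (13.0 without the smallest library, 8.70 with it), space without gravity (12.5), and land without (3.37) and with nanoceria (0). All neighbours overlapped except the 2 land groups. Pooled, space without gravity was 4.55-fold above land without nanoceria (3.19 to 6.65) and at least 88.4-fold above it with nanoceria. The first value became 2.97 without land replicate 1 and 9.42 without land replicate 3, and the bound became 47.4 without land replicate 2 with nanoceria.

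Gm43062 has no host, and Nras, the same-strand gene just upstream, was set beside it instead, a choice made after the data were seen. Nras was itself higher in space: its group means were 1182 and 1281 CPM without gravity, 1777 and 1104 CPM with gravity (1543 without the smallest library) and 265 and 650 CPM on land, the first of each pair without nanoceria. Per kb, Gm43062 over Nras was 0.0228, 0.0184 and 0.105 on land without nanoceria, the last the highest of all libraries, and 0 with nanoceria. In space with gravity it was 0.0586, 0.0256 and 0.0421 without nanoceria and 0.0549, 0.0166 and 0 with it. Without gravity it was 0.0495, 0.0397 and 0.0363 without nanoceria and 0.0729, 0.0777 and 0.0670 with it. Relative to Nras, Gm43062 in space thus lay within the land range, but 1 library, land replicate 3 without nanoceria, set the top of that range. Without it the highest land ratio was 0.0228, and 10 of the 11 space libraries other than the smallest lay above it.

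**Figure D3:**
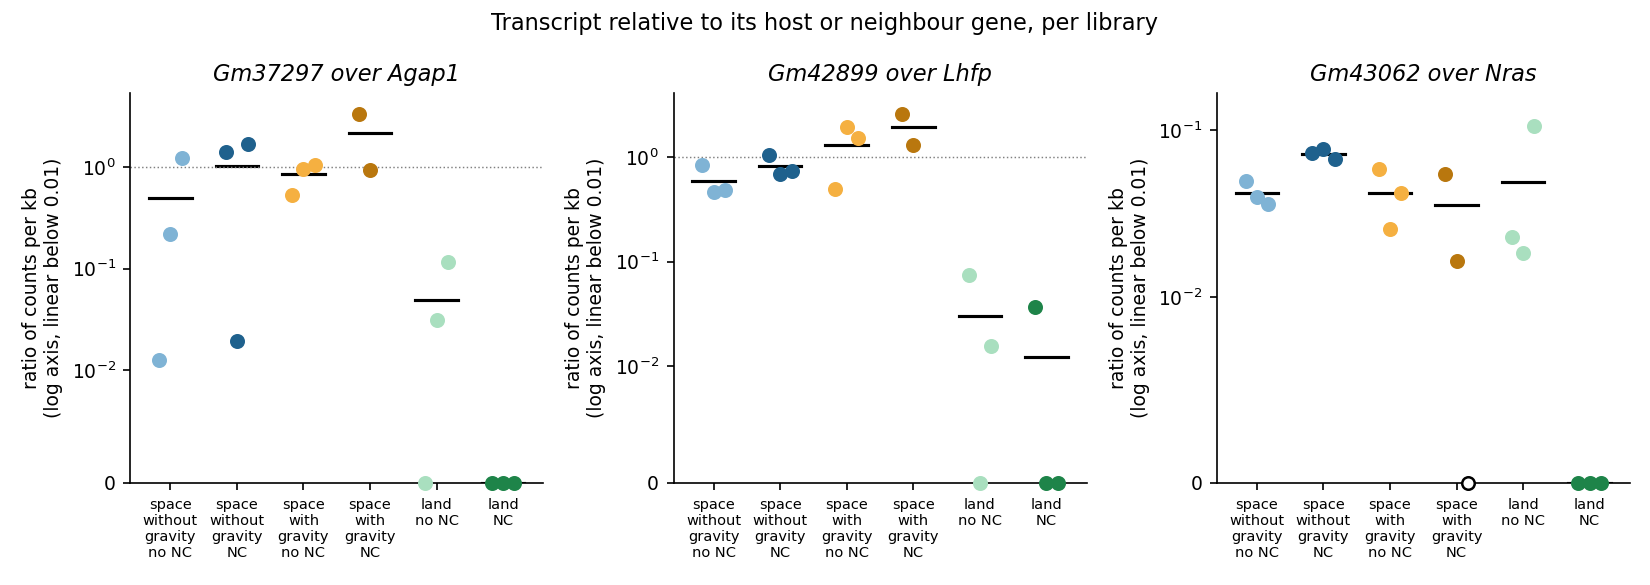
Counts per kb of each transcript over counts per kb of its host gene (Agap1, Lhfp) or upstream neighbour (Nras) in each library, on a log axis that is linear below 0.01; libraries with under 10 counts of the pair are left out, the open point is the smallest library and bars are means without it. Gm42899 over Lhfp separates space (0.463 and above) from land (0.0744 and below), while the other 2 ratios overlap between space and land, Gm43062 over Nras mainly through the land library at 0.105.

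As a description of the comparison behind the choice, the fitted log2 differences of space with gravity from land (mean of both nanoceria levels) were 9.40 ± 1.57 (SE) for Gm37297, 6.97 ± 0.80 for Gm42899, 5.80 ± 0.93 for Gm43062, 2.30 ± 0.57 for Agap1 and −0.81 ± 0.75 for Lhfp. For space without gravity against land they were 7.54, 6.15, 6.02, 1.62 and −0.56 in the same order. The values of the 3 transcripts rest on land groups at or near 0 counts, so they depend on how the model treats zeros. By edgeR's quasi-likelihood test with Benjamini-Hochberg adjustment, 14.0% of the 11558 tested genes passed an adjusted p of 0.05 for space with gravity against land, and 7.22% were called higher in space. Of the 5 genes 4, all but Lhfp, were among those called higher. For space without gravity against land 5.25% were called and 2.81% called higher, among them the 3 transcripts. Both comparisons use the same land libraries, and nothing is read from these counts, since the genes were chosen on them.

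The share of the 6 dominant genes moved with the comparison, from 31.0% ± 5.60 (SD, n = 3) for space with gravity and no nanoceria to 65.3% ± 13.9 (SD, n = 3) on land without it. With that share as a covariate, space with gravity against land gave log2 fold changes of 7.05 for Gm37297, 6.27 for Gm42899, 3.54 for Gm43062, 2.82 for Agap1 and −1.74 for Lhfp, and the count over all genes fell from 1613 to 1. With DESeq2 size factors in edgeR the median of all genes moved from −0.04 to −0.39. The 5 genes then stood at 9.19, 6.68, 5.60, 1.97 and −1.17 in the same order. The split of calls moved from 834 higher and 779 lower to 628 higher and 1558 lower. In these 2 alternatives the hosts Agap1 and Lhfp kept their signs. Nothing is read from the signs of the 3 transcripts, which were chosen on this comparison.

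Nanoceria, averaged over the 3 regimes, called 0 genes (0%) by edgeR, with 756 at an unadjusted p under 0.05, while DESeq2 called 1 (0.00876%). Of the 5 genes Gm43062 had the smallest p. Its log2 fold change was −2.37 ± 0.74 (SE, edgeR p 0.00556, adjusted 0.723), a fitted value that rests on the land libraries with nanoceria at 0. It passed the threshold only without a filter on low counts (adjusted p 0.0325), and its adjusted p lay between 0.336 and 0.867 under the other alternatives. The fitted values of Gm37297 (−0.78 ± 1.15), Agap1 (−0.14 ± 0.45), Gm42899 (−0.38 ± 0.56) and Lhfp (0.13 ± 0.61) were smaller than their SE. By group mean, Gm37297 and Gm42899 were higher with nanoceria in both space regimes, with or without the smallest library. They were lower with it only on land, at 0 against 3 counts and 1 against 9 counts, so their negative signs rest on land groups at or near 0.

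Whether nanoceria acted differently between regimes was tested with an F test, which called 0 genes (0%) by edgeR, with 710 at an unadjusted p under 0.05; DESeq2 was not run for it. Gm43062 again had the smallest p of the 5 (edgeR p 0.00254, adjusted 0.722), with adjusted p between 0.487 and 0.866 under the alternatives other than no filter on low counts, which gave 0.00113. Its mean level was higher with nanoceria in space without gravity (22.7 ± 6.86 against 12.5 ± 9.23 CPM, SD, n = 3) and lower on land (0 against 3.37 ± 3.63 CPM). In space with gravity it was lower with nanoceria as well (13.0 CPM without the smallest library and 8.70 with it, against 18.2). Gm42899 had an unadjusted p of 0.103, and Agap1, Gm37297 and Lhfp of 0.545, 0.521 and 0.874 in this edgeR test.

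Withdrawing gravity in space, averaged over nanoceria, called 0 genes (0%) by edgeR, with 676 at an unadjusted p under 0.05, and 11 (0.0964%) by DESeq2. The log2 fold change of Gm37297 was −1.86 ± 0.94 (SE, edgeR adjusted p 0.891), and −2.08 without the smallest library. It was −3.73 without space without gravity replicate 3 (no nanoceria; edgeR p 0.00127, adjusted 0.600), −1.13 without space with gravity and nanoceria replicate 1, and −0.79 with the share of the dominant genes in the model. Without a filter on low counts its adjusted p was 0.0273. Gm42899 stood at −0.82 ± 0.55, Agap1 at −0.68 ± 0.55, Lhfp at 0.24 ± 0.75 and Gm43062 at 0.22 ± 0.59, none past the threshold. With the dominant share in the model Gm43062 stood at 1.48 ± 0.54 (edgeR p 0.0147, adjusted 0.648) and Lhfp at 0.77 ± 0.87.

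The share of each transcript in the counts of its pair was tested directly with 2-sided exact permutation tests, 4 in the family, in which libraries changed places only within a level of the factor not tested. Without gravity the share of Gm42899 was 26.5%, against 43.4% with gravity, a difference of −17.0 percentage points (11 libraries, exact p 0.02, adjusted 0.08), which did not pass after adjustment. It was lower without gravity at both nanoceria levels, at 23.3% ± 6.07 (SD, n = 3) against 38.1% ± 15.7 (n = 3) without nanoceria and 29.6% ± 4.78 (n = 3) against 48.7% ± 11.8 (n = 2) with it. With each library left out in turn, the difference ranged from −21.4 to −12.8 points. Its exact permutation adjusted p was 0.04 without space with gravity replicate 1 (no nanoceria), the lowest share there at 20.4%. That was the one such value to pass among fits with more than 1 library in each group. The −12.8 came without space with gravity and nanoceria replicate 1. Leaving out replicate 1 or 2 of that group left 1 library in it, so no p is given for those fits. The share of Gm37297 was 8.75% without gravity and 15.8% with it, a difference of −7.08 points (exact p 0.25, adjusted 0.28). With nanoceria the shares moved by 5.42 points for Gm37297 (17 libraries, exact p 0.149, adjusted 0.28) and by 5.34 points for Gm42899 (exact p 0.28, adjusted 0.28), both smaller than the spread between libraries.

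Within space, where the transcripts can be measured, how closely the levels of each pair were related depended on 2 libraries. Over the 11 space libraries other than the smallest, log2 CPM of Gm37297 and Agap1 had Pearson's r of 0.36 and Spearman's rho of 0.27. Without the 2 libraries farthest from the median of Gm37297, r was 0.85 (n = 9), so the low value rests on those 2. For Gm42899 and Lhfp, r was 0.66 and rho 0.43, and r fell to 0.01 without the 2 farthest libraries, so that relation rests on those. Between the 2 intronic transcripts r was 0.57 and rho 0.46. These libraries share depth, scaling and the 2 gravity regimes, and the values are descriptions.

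The genes most like each of the 5 were named by the highest Pearson correlation of log2 CPM over 17 libraries (the smallest left out), which fall into space and land. For Gm37297 they were Gm45731 (a TEC gene, 0.91), Gdap10, Ick, Ip6k1 and Wdfy1, and for Gm42899 they were Paxbp1 (0.95), Gm38157 (a TEC gene within Dst), Prpf4, Ip6k1 and Psmd6. Ip6k1, an inositol hexakisphosphate kinase gene, stood in both lists. For Gm43062 they were Matr3 (0.96), Ikbip, Phf20, Ufm1 and Tbx3. Agap1 was most like Prrc1 (0.92), Rrn3, Atf3, Tfg and Lmo7, and Lhfp was most like Hmgcs1 (0.89), Id2, Fstl1, Pik3r1 and Cpd. Neither host stood among the 5 genes most like its transcript.

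The same comparison was made for the other TEC genes that lie in an intron on the strand of their host. Of 1237 such genes 88 passed the filter on low counts, and a transcript near 0 on land could pass it only through the space libraries, so the counts below describe those 88. For space with gravity against land, edgeR called 25 higher and 1 lower, beside 7.22% of all tested genes called higher and 6 higher and 3 lower of their 76 tested hosts. Of the 25, 18 held at most 10 counts over the 6 land libraries. The median log2 fold change was 2.67 for the 82 with a tested host and 0.44 for the hosts, and the transcript stood above its host in 62 of 82 pairs. Among the 22 called higher that had a tested host, the host was called higher in 1 and lower in 2. For space without gravity against land 10 were called higher and 0 lower, beside 2.81% of all tested genes called higher. At an unadjusted p under 0.05 by edgeR there were 34 of the 88, beside 24.7% of all tested genes, and DESeq2 called 20 of the 82 for which it gave an adjusted p, beside 13.4% of all genes with one. Higher calls also occurred outside same-strand introns: 7 of 21 tested TEC genes outside genes and 2 of 5 on the strand opposite to the host were called higher with gravity.

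**Figure D4:**
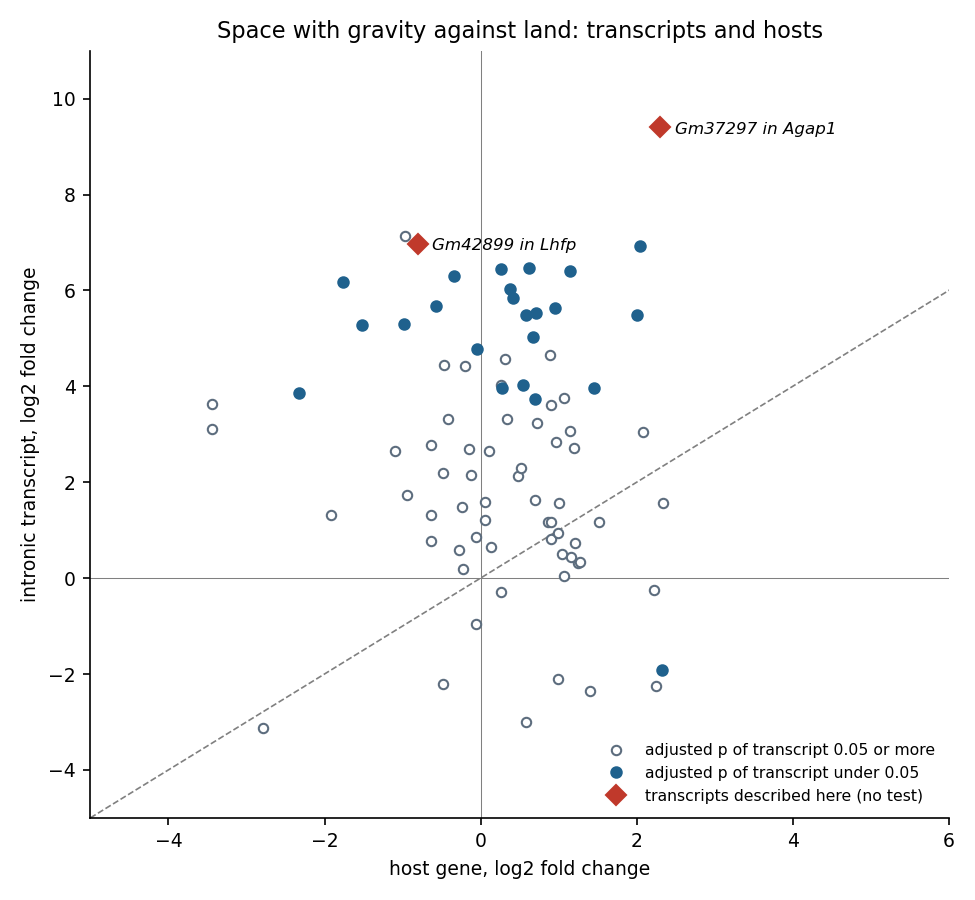
Fitted log2 fold change of intronic TEC transcripts (vertical axis) against that of their host genes (horizontal axis) for space with gravity against land (mean of both nanoceria levels); filled points passed an adjusted p of 0.05, diamonds are the 2 selected transcripts and the dashed line marks equal change. In 62 of 82 pairs other than the selected ones the point lies above the line.

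Of the called TEC genes 6 reached the abundance set for naming, an average log2 CPM of at least 3, and all were higher in space with gravity. Gm42856, within Wasl, an actin regulator gene, had 1607 and 1608 counts in space with gravity without and with nanoceria and 4 and 10 on land (log2 fold change 6.47 ± 1.03, against 0.62 ± 0.46 for Wasl, edgeR adjusted p 0.00288 and 0.371). Gm38157, within Dst, a cytoskeletal linker gene, had 5.28 ± 0.81 against −1.52 ± 0.61 for its host. Gm43571, Gm43858, Gm43362 and Gm44901, within Atxn2, Usp33, Srsf11 and Mettl9, had log2 fold changes of 6.30, 5.62, 4.02 and 3.73, against −0.34, 0.96, 0.54 and 0.70 for these hosts. An exon of a gene on the opposite strand overlaps Gm43571. None of the 6 hosts passed the threshold, beside 14.0% of all tested genes, so with 6 hosts nothing is read about them from this.

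These counts depended on a few libraries. Calls over all tested genes moved as well, by ranges given in the closing section, so no change particular to the TEC genes is read. For space with gravity against land, the TEC genes called numbered 26 in all, 6 without space with gravity and nanoceria replicate 1, 17 and 16 without replicates 1 and 2 of space with gravity, 12 and 15 without land replicates 1 and 2, and 13 without land replicate 3 with nanoceria. For space without gravity the 10 calls became 4 without replicate 1 or 3 of that group, 6 without its replicate 1 with nanoceria, 2 and 3 without land replicates 1 and 2 and 2 without land replicate 3 with nanoceria. With the summed share of those 6 genes as a covariate 0 were called by edgeR in both comparisons, with 15 and 20 of the 88 at an unadjusted p under 0.05. DESeq2 without that covariate called 25 and 20 of 82, beside 23.6% and 13.4% of all genes it tested.

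The summed share of these 1237 transcripts, a measure chosen after the data were seen, overlapped between space and land. As a percentage of counts outside the 6 dominant genes it was 0.193, 0.0506 and 0.0977 in space without gravity and 0.131, 0.165 and 0.0781 with nanoceria there. With gravity it was 0.134, 0.126 and 0.118 without nanoceria and 0.197, 0.0865 and 0.270 with it, of which the third comes from 49 counts in the smallest library. On land it was 0.0446, 0.0349 and 0.0949 without nanoceria and 0.113, 0.0563 and 0.104 with it. TEC genes outside genes, 775 in number, took 0.0216% to 0.0645% in space without the smallest library and 0.0141% to 0.0394% on land. The host genes took 3.23% to 4.20% and 3.15% to 4.95%.

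**Figure D5:**
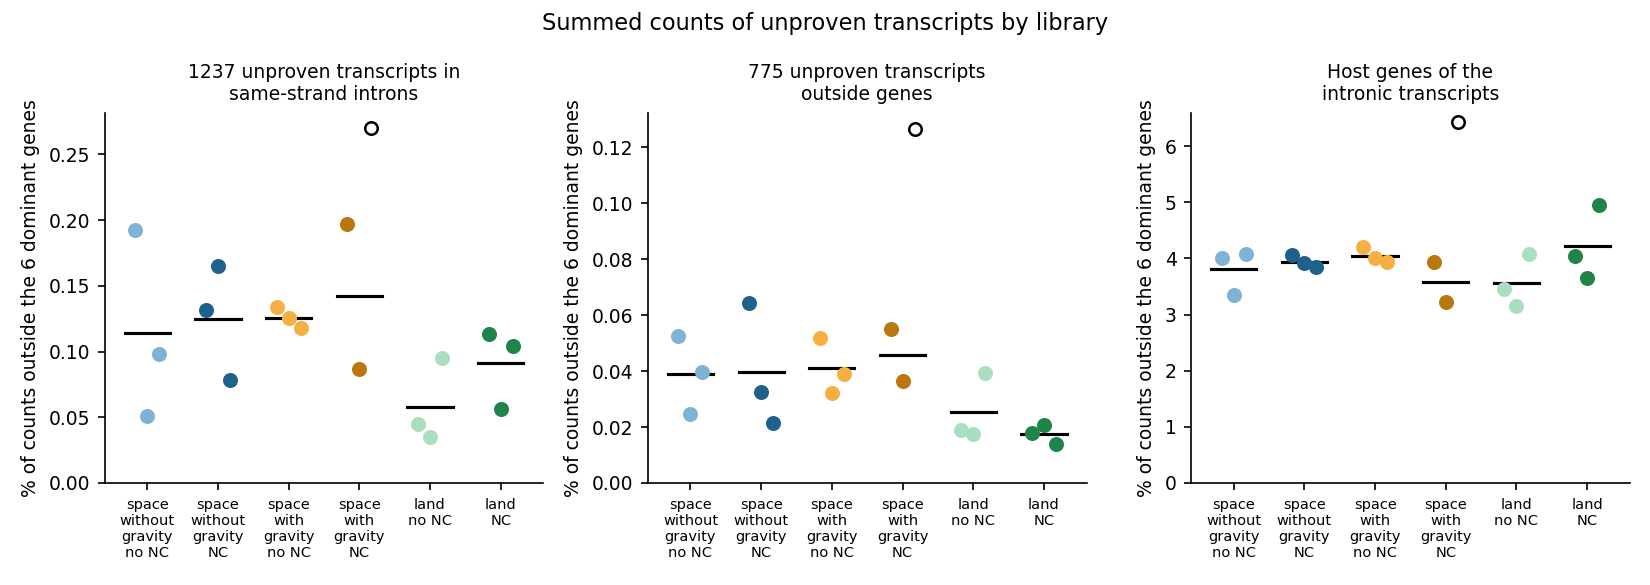
Summed counts of TEC transcripts in same-strand introns (the 2 selected ones left out), of TEC transcripts outside genes and of the host genes, as a percentage of the counts outside the 6 dominant genes, in each library; NC is nanoceria, bars are group means without the smallest library (open point). The intronic share spans 0.0506% to 0.197% in space without the smallest library and 0.0349% to 0.113% on land.

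Relatives of the hosts were set beside all tested genes, and shares of calls near that of all tested genes are not read as results about them. Of 22 other ARF GAP genes 19 were tested, and for space with gravity against land 1 was called higher and 2 lower (15.8% called, beside 14.0% of all tested genes), with a median log2 fold change of −0.05, beside −0.04 over all tested genes. DESeq2 called 6 of the 19, beside 23.6% of all genes it tested. Agfg1 was called higher (1.84 ± 0.47, edgeR adjusted p 0.0180), and Agfg2 (−2.38 ± 0.65, edgeR adjusted p 0.0245) and Acap3 (−1.60 ± 0.49, edgeR adjusted p 0.0391) lower. Agap3, the tested relative closest in name to Agap1, stood at −1.07 ± 0.42 (edgeR adjusted p 0.0886). Of 12 tested ARF GTPase and AP-3 genes, Arf5 was called lower (−1.47 ± 0.38, edgeR adjusted p 0.0199) and none higher (8.33% called, beside the same 14.0%). Lhfpl2 was the one tested relative of Lhfp and stood at 0.08 ± 0.44. For space without gravity against land, Agfg2 was called lower (−2.49 ± 0.63, edgeR adjusted p 0.0325) and no other gene of these lists was called. This was 5.26% of the tested ARF GAP genes, beside 5.25% of all tested genes. Nanoceria and gravity called 0 of these genes by edgeR and 0 by DESeq2, beside 0% of all tested genes by edgeR. At an unadjusted edgeR p under 0.05 there were 2 and 0 ARF GAP genes and 0 and 1 ARF or AP-3 genes. Of all tested genes 6.54% and 5.85% stood under that p, and nothing is read from such small counts.

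Of 10 listed nuclear-retained long noncoding RNAs 4 passed the filter, and edgeR and DESeq2 called 0 of them in each of the 4 comparisons, with 0 at an unadjusted p under 0.05. Over all tested genes, edgeR called 14.0% and 5.25% in the comparisons of space with and without gravity against land, and DESeq2 23.6% and 13.4%. For nanoceria and for gravity edgeR called 0%. With 4 genes, the 0 calls and the 0 at an unadjusted p are therefore not read as a result about them. Between space with gravity and land the log2 fold changes were −0.19 ± 0.75 for Malat1, −0.35 ± 0.71 for Neat1, −1.24 ± 0.86 for Kcnq1ot1 and 0.14 ± 0.90 for Firre.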

How the data were processed

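Each deposited file gave the authors' raw counts of reads for every Ensembl gene in 1 polyadenylated library. Per the submitters' processing notes, CASAVA, Trimmomatic 0.36.29, STAR, Subread and featureCounts were used with GRCm38.p6. Use of strand and handling of multiple matches are not given in the sources used here. The 18 small RNA samples were not analysed here. Symbols and classes came from GENCODE M21, which held 48970 of the 49315 identifiers.

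Counts were tested with edgeR 4.0.16 (R 4.3.3, limma 3.58.1): filterByExpr, TMM and a robust quasi-likelihood group-means model over the 18 libraries with 12 residual degrees of freedom. Benjamini-Hochberg adjustment ran over 11558 genes. The test recovered large known changes in simulated counts with the same spread for every gene. That setting is simpler than these libraries, so it checks the code and not the results for genes near 0 counts. CPM are counts for every 1000000 of TMM-scaled library size, and a prior count of 2 was used for log2 CPM. Host shares needed 10 counts of the pair. Copies were searched with blastn 2.17.0 (85% identity, E value 1e-10).

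Alternatives were DESeq2 size factors, the DESeq2 1.42.0 test, no filter, the 6 dominant genes (Lars2, Gm23935, Gm15564, Gm24270, Gm24187 and Gm25911) removed or their share as a covariate, the compared groups only, other pair minimums (1 and 50), a log2 ratio with 0.5 added, no opposite-strand exon, and leaving out each library.

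Genes were named by rule: the 5 described, the 5 most like each, up to 5 TEC genes with the highest and 5 with the lowest log2 fold change at an average log2 CPM of at least 3, genes with at least 10 counts inside the hosts or within 50 kb of Gm43062 (of these, 1 is not reported here), and fixed lists. Genes named below 10 counts were chosen after their values were seen. Genes and lists were chosen with earlier results of these data known. Each library came from its own experiment unit, 3 units a class, per the labels.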

Additional observations from a re-analysis of the deposited data

Results flagged for a closer look

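The ratio of Gm43062 to Nras, in counts per kb, moved in opposite directions with nanoceria in 2 regimes. In space without gravity it was higher with nanoceria in every library, by 0.0307 on average (0.0725 against 0.0418). On land it was lower with nanoceria in every library, by −0.0488 (0 against 0.0488), and 1 land library without nanoceria, at 0.105, carried most of that mean. The difference between these 2 effects on the ratio was not tested; for the level of Gm43062 the corresponding F test did not pass after adjustment (edgeR adjusted p 0.722).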

How the results depend on the processing

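No paired analysis was possible because nothing but the order of the records set the replicate numbers. For nanoceria and gravity, 139 values of the 5 genes with 1 library left out and 53 under the other alternatives kept their direction and their side of the threshold. With 1 library left out 11 turned their sign, and 2 newly passed the threshold without a filter on low counts. In the F test between regimes, which has no direction, 90 and 19 adjusted p stayed on their side of the threshold and 1 passed it, again without a filter. Against land 4 values of Lhfp turned their sign with 1 library left out. No stability is read from the 3 transcripts there, since they were chosen on that comparison. The signs that turned belonged to values smaller than their SE or about as large. With 1 library left out, the nanoceria value ranged from −1.24 to 0.46 for Gm37297, from −0.33 to 0.056 for Agap1 and from −0.77 to 0.70 for Lhfp. The gravity value ranged from −0.23 to 0.59 for Lhfp and from −0.053 to 0.71 for Gm43062. Lhfp ranged from −1.12 to 0.56 for space with gravity against land and from −1.0 to 0.80 for space without gravity against land. The cause was not tested.

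Counts over all genes moved more. The DESeq2 test called 1 gene for nanoceria, 11 for gravity, 2691 (824 higher, 1867 lower) for space with gravity and 1524 (508 higher, 1016 lower) for space without gravity against land, and 20 intronic TEC genes in the last. Without a filter, which tests 25194 genes, nanoceria called 214, gravity 229 and space without gravity against land 1466. Intronic TEC genes called were then 76 and 50 in the 2 comparisons with land. More TEC genes are tested without a filter and their number is not given here, so no share is read from these 2 counts. With the dominant share as a covariate the comparisons with land called 1 and 6 genes and 0 and 0 intronic TEC genes by edgeR. Over the compared groups only they called 1072 and 387 genes, and 6 intronic TEC genes without gravity. With 1 library left out, calls ranged from 459 to 1614 and from 82 to 703 genes, and from 6 to 27 and from 2 to 15 intronic TEC genes. The share of Gm42899 without gravity ranged from −21.4 to −12.8 points.

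The smallest library held 0 to 3 counts of each of the 5 genes. On land Gm37297 held 0 to 2 counts, below the 3 that set the limit of 0.193 to 1.11 CPM outside the smallest library, and Gm42899 held 0 to 5. Gm43062 held 5 to 23 counts on land without nanoceria and 0 with it.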
